A study of Mus with 5 samples.

Results

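The 5 T-box genes *Tbx2*, *Tbx3*, *Tbx5*, *Tbx18* and *Tbx20* were examined in RNA-seq values of E14.5 mouse hearts. The genes were taken by their Ensembl identifiers, and all 5 were among the 12857 genes with values. The hearts were ventricles and valves with the atria removed, and RNA of 4 embryos went into each pool. WT hearts gave 2 pools, and hearts labelled Nkx2.5CRE;Bmp2 gave 3 pools, called transgenic here. The transgenic embryos hold Cre in the *Nkx2.5* locus, which cuts out a floxed stop in *Rosa26* and so lets the CAG promoter there transcribe mouse *Bmp2* together with eGFP. The transgenic line came from 1 targeted ES cell clone. The transgenic pools carry the Cre allele as well as the transgene, and the labels do not say which cross gave the WT pools. In the lethality cross that the study describes, the mothers were homozygous for Cre, so that littermates without the transgene also carried 1 Cre allele. Effects of the Cre allele and of the transgene cannot be told apart from the labels alone. RNA of 12 hearts per genotype had been made into 3 pools, and the study dropped 1 of the WT pools on the basis of clustering, so the spread between WT pools is that of the pools that were kept.

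T-box proteins share a DNA-binding domain and act as activators or repressors of transcription. In the developing heart, *Tbx2* and *Tbx3* encode repressors that keep the chamber programme off in the myocardium of the atrioventricular canal (AVC), and *Tbx3* also marks the forming conduction system. *Tbx5* and *Tbx20* encode factors of chamber myocardium that act with Nkx2-5 and Gata proteins, and Tbx20 limits *Tbx2* to the canal. *Tbx18* encodes a factor of the epicardium and of the sinus horns. Bmp signals from the canal myocardium are known to activate *Tbx2*.

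Values are counts per 1000000 reads (CPM) of a scaled library size. The depth was 7427905 to 10564780 reads per pool, and 3 reads, the limit that a count of 0 allows, equalled 0.287 to 0.402 CPM. Transgenic and WT pools were compared with limma on log2(CPM + 0.5), with Benjamini-Hochberg adjustment of the p-values of all 12857 genes. A gene passed the test at an adjusted p at or under 0.05. The added 0.5 shrinks fold changes, most for genes with few reads. An exact permutation test of a single gene, 3 pools against 2, cannot give a two-sided p under 0.1, and nothing in the labels tells how litters were spread over the pools, so p-values measure the spread between these pools.

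*Tbx3*, *Tbx18* and *Tbx20* were higher in transgenic hearts, *Tbx2* and *Tbx5* did not pass the test, and none of the 5 passed it as lower. Thus 3 of the 5 genes passed, against 2.82% of all genes tested, 1.22% as higher and 1.59% as lower. For *Tbx3*, *Tbx5*, *Tbx18* and *Tbx20* the lowest transgenic pool exceeded the higher WT pool, as for 17.7% of all genes. For *Tbx2* each transgenic pool was below both WT pools, as for 18.0% of all genes. The 5 genes were picked with results of these pools known, so these counts are a description.

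**Figure D1:**
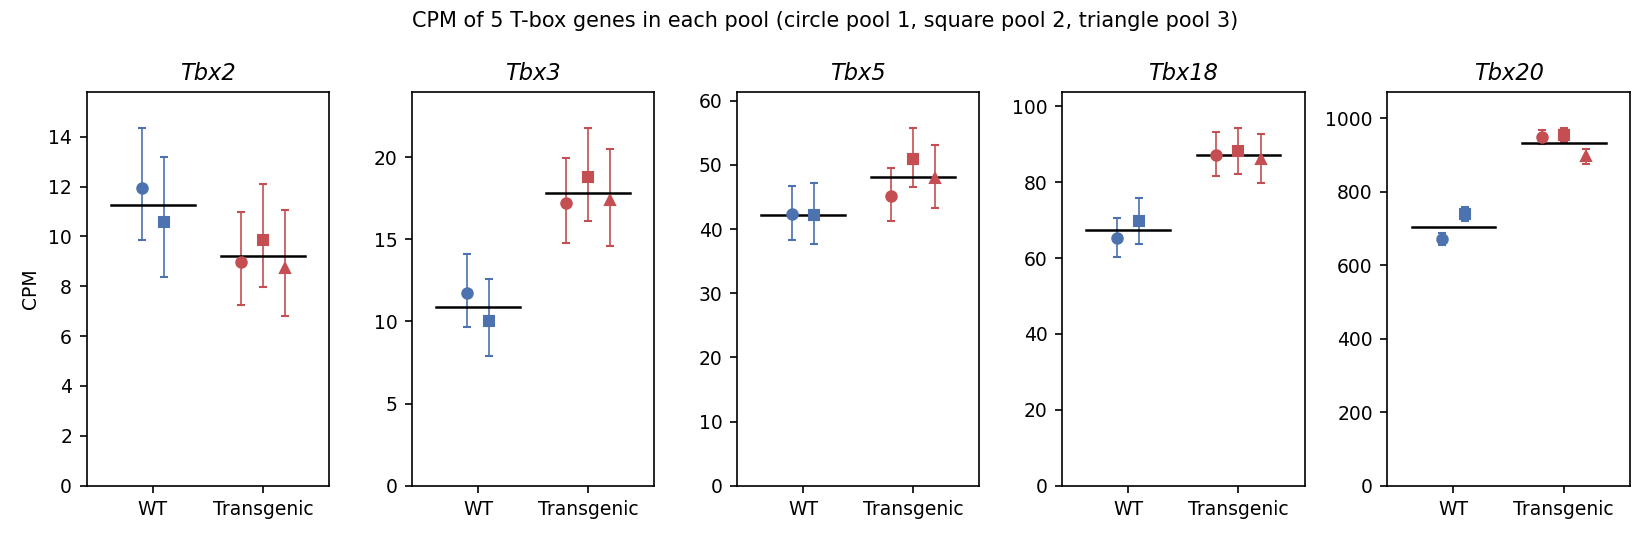
CPM of each T-box gene (vertical axes, each from 0) in the 2 WT pools (blue) and 3 transgenic pools (red), with exact 95% Poisson intervals of the reads as bars and group means as black lines. The transgenic pools lie above the WT pools by more than the counting intervals for *Tbx3*, *Tbx18* and *Tbx20*, and the intervals of the groups overlap for *Tbx2* and *Tbx5*.

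Of the canal repressors, *Tbx3* rose. *Tbx3* (ENSMUSG00000018604; chromosome 5 of GRCm38.p6, 119670534 to 119684724) reached 17.2, 18.8 and 17.4 CPM with the transgene (pools 1, 2 and 3) against 11.7 and 10.1 CPM in WT (pools 1 and 2). All 3 transgenic pools were above both WT pools, and the gap of 5.48 CPM between the groups was larger than the range within either group, 1.57 CPM in transgenic and 1.68 CPM in WT pools. Behind these values stand 180, 175 and 139 transgenic reads and 111 and 75 WT reads. The lowest counting limit among the transgenic pools, 14.6 CPM, was above the highest among the WT pools, 14.1 CPM. The group means were 17.8 ± 0.864 CPM (SD, n = 3 pools) and 10.9 ± 1.19 CPM (SD, n = 2 pools). The log2 fold change was 0.69 (standard error 0.12, 95% interval 0.43 to 0.94), with a limma adjusted p of 0.00547. It was the largest fold change of the 5 genes. With WT pool 2 left out, which leaves 1 WT pool, the log2 fold change was 0.58 and the call was lost. Of 17 alternative settings, 15 kept the call. For this and the other genes, 2 of the 17 repeat another fit and could not differ from it. In the settings without a pool left out, the adjusted p lay between 0.000131 (edgeR exact test) and 0.108 (limma).

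*Tbx2* (ENSMUSG00000000093; chromosome 11, 85832615 to 85841948), the other canal repressor and a known target of Bmp signals, reached 8.99, 9.88 and 8.75 CPM with the transgene against 11.9 and 10.6 CPM in WT. The 2 groups did not overlap, but the gap of 0.712 CPM was smaller than the range within either group, 1.12 CPM among transgenic and 1.36 CPM between WT pools. The means were 9.21 ± 0.592 CPM (SD, n = 3) and 11.3 ± 0.960 CPM (SD, n = 2), from 70 to 94 reads per transgenic pool and 113 and 79 reads per WT pool. The log2 fold change was -0.28 (standard error 0.14, 95% interval -0.58 to 0.02), and the limma adjusted p was 0.318. *Tbx2* passed the test in 0 of the 17 alternative settings, where its log2 fold change lay between -0.36 and -0.19. The interval holds a fold of transgenic over WT from 0.671 to 1.02. A rise of *Tbx2* as large as that of *Tbx3* lies outside the interval.

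Within each pool, the reads of *Tbx3* and *Tbx2* were also set against each other, since a ratio within a pool does not depend on how libraries are scaled. The log2 ratio of *Tbx3* to *Tbx2* CPM was 0.94, 0.93 and 0.99 with the transgene and -0.03 and -0.07 in WT. Thus the 2 genes took nearly equal numbers of reads in WT hearts, while *Tbx3* took 1.93-fold the reads of *Tbx2* in transgenic hearts. The mean log2 ratio was 0.95 ± 0.03 (SD, n = 3) in transgenic and -0.05 ± 0.03 (SD, n = 2) in WT hearts, and an exact two-sided permutation test gave p = 0.1, the smallest it allows. The sum of both genes was 26.2, 28.7 and 26.1 CPM in the transgenic pools and 23.7 and 20.6 CPM in the WT pools, and *Tbx3* made up 65.9% of that sum in transgenic and 49.1% in WT hearts. Transcript lengths were not used here, so the ratios are of reads and not of molecules. Their change between genotypes is free of gene length.

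Of the chamber T-box genes, *Tbx20* rose. By in situ hybridisation at E14.5, the study reports more *Tbx20* in the AVC valves as well as its spread into trabeculae. The bulk value of *Tbx20*, and ratios to it, are thus not of the chambers alone. *Tbx20* (ENSMUSG00000031965; chromosome 9, 24720812 to 24774303) reached 948, 954 and 896 CPM with the transgene against 670 and 739 CPM in WT. The gap of 157 CPM between the groups was larger than the range within them, 57.9 CPM in transgenic and 68.8 CPM in WT pools. With 5511 to 9911 reads per pool, *Tbx20* had by far the smallest counting error of the 5 genes. The pools of 1 genotype still differed by more than read counting gives, with a chi-square of 18.5 on 2 degrees of freedom among transgenic pools and 28.2 on 1 degree of freedom between WT pools. For *Tbx2*, *Tbx3* and *Tbx18* the same chi-square was at most 0.791 among transgenic pools and 1.18 between WT pools. For *Tbx5* it was 3.41 and 0.000447. This chi-square grows with the number of reads, so it does not rank the genes by their relative spread between pools. The log2 fold change of *Tbx20* was 0.41 (standard error 0.06, 95% interval 0.28 to 0.53), a 1.32-fold difference in mean, with a limma adjusted p of 0.00162 that ranked 47 among 12857 genes. Without WT pool 1, which leaves 1 WT pool, the log2 fold change was 0.34 and the call was lost. Over the 17 settings the adjusted p lay between 2.25e-08 (DESeq2) and 0.165 (limma), and 15 settings kept the call.

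*Tbx5* (ENSMUSG00000018263; chromosome 5, 119796514 to 119885220), an activator of chamber genes, reached 45.2, 51.0 and 48.0 CPM with the transgene against 42.3 and 42.2 CPM in WT. Each transgenic pool was higher than both WT pools, but the gap of 2.95 CPM was smaller than the range of 5.76 CPM among the transgenic pools. The WT pools differed by 0.0673 CPM, which is less than the counting error of 400 and 315 reads, so their spread alone understates the error of the WT mean. The means were 48.1 ± 2.88 CPM (SD, n = 3) and 42.3 ± 0.0476 CPM (SD, n = 2). The log2 fold change was 0.18 (standard error 0.08, 95% interval 0.02 to 0.35), with a limma p of 0.0315 before and 0.227 after adjustment. *Tbx5* passed the test in 0 of the 17 alternative settings, with log2 fold changes from 0.14 to 0.23.

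*Tbx3* and *Tbx5* are neighbours on chromosome 5, 112 kb apart, with no protein-coding gene of the RefSeq annotation between them. In transgenic hearts *Tbx3* rose by 0.69 on the log2 scale, while the value for *Tbx5*, which did not pass the test, was 0.18. The log2 ratio of *Tbx3* to *Tbx5* CPM was -1.39, -1.44 and -1.47 with the transgene and -1.85 and -2.07 in WT, a difference of 0.53 between the means with no overlap (exact two-sided permutation p = 0.1). *Tbx2* lies 44.4 kb from *Tbx4* on chromosome 11 in the same way, and *Tbx4* was not analysed here, because its identifier is not paired with its name.

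The ratios of the canal repressors to *Tbx20* moved apart. The log2 ratio of *Tbx3* to *Tbx20* CPM was -5.78, -5.67 and -5.69 with the transgene and -5.83 and -6.20 in WT, so that the groups did not overlap, but the lowest transgenic pool was close to WT pool 1. The log2 ratio of *Tbx2* to *Tbx20* was -6.72, -6.59 and -6.68 with the transgene and -5.81 and -6.12 in WT, lower by 0.70 on average. Relative to *Tbx20*, *Tbx3* thus gained 0.31 and *Tbx2* lost 0.70 on the log2 scale. The log2 ratio of *Tbx5* to *Tbx20* was also lower in each transgenic pool, with means of -4.28 ± 0.0958 (SD, n = 3) and -4.06 ± 0.101 (SD, n = 2). For these 3 ratios the exact two-sided permutation p was 0.1, the smallest 3 pools against 2 can give. For *Tbx2* to *Tbx20* the opposite order of the single genes already fixed that the groups separate, so that p adds nothing. *Tbx20* took 85.2% of the reads of the 5 genes in transgenic and 84.2% in WT hearts.

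**Figure D2:**
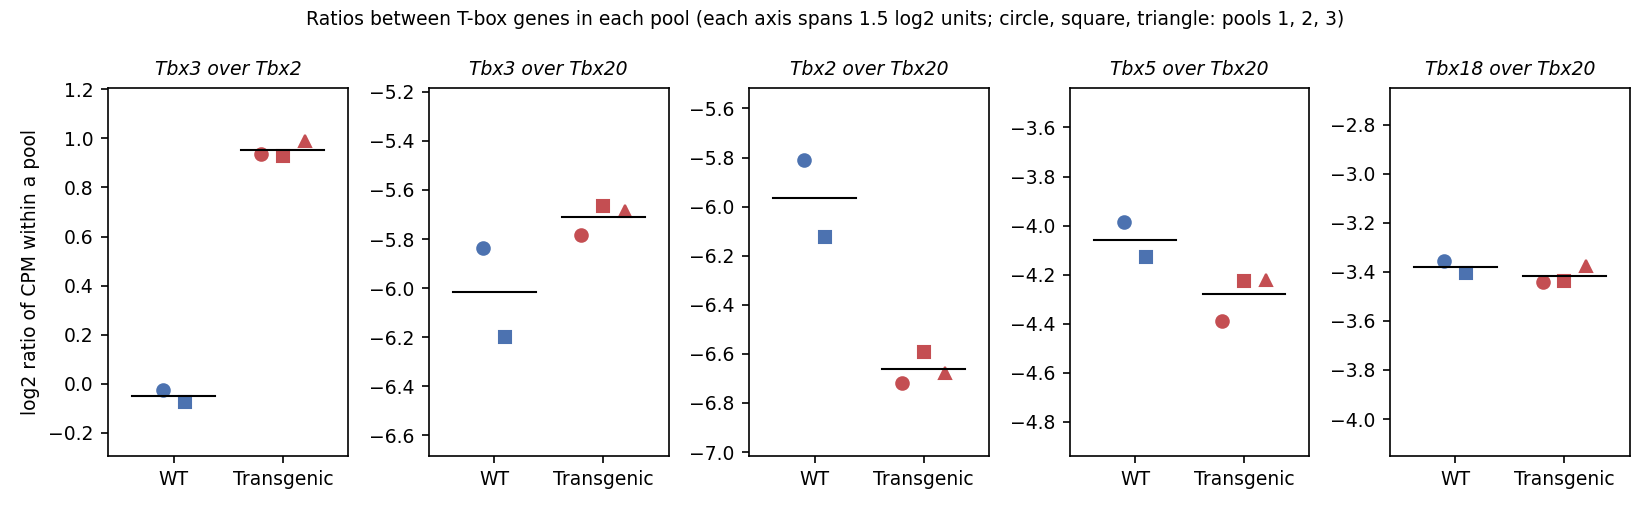
Log2 ratio of the CPM of 1 T-box gene to another within each pool (vertical axes, each spanning 1.5 log2 units), for WT (blue) and transgenic (red) pools, with group means as black lines. *Tbx3* over *Tbx2* moves from a mean of -0.05 to 0.95, *Tbx2* over *Tbx20* moves down, and *Tbx18* over *Tbx20* overlaps between the groups.

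*Tbx18* (ENSMUSG00000032419; chromosome 9, 87702800 to 87731260), the gene of epicardium and sinus horns, rose. It reached 87.3, 88.1 and 86.2 CPM with the transgene against 65.3 and 69.7 CPM in WT. The transgenic pools lay within 1.98 CPM of each other, and the gap of 16.5 CPM to the WT pools was larger than the range of 4.36 CPM between the WT pools. The reads were 689 to 913 per transgenic pool and 618 and 520 per WT pool, and the counting intervals of the groups did not overlap, with 79.8 CPM as the lowest transgenic limit and 76.0 CPM as the highest WT limit. The means were 87.2 ± 0.995 CPM (SD, n = 3) and 67.5 ± 3.08 CPM (SD, n = 2). On the log2 scale this was a difference of 0.37 (standard error 0.06, 95% interval 0.23 to 0.50), with a limma adjusted p of 0.00476. Leaving out WT pool 1 or WT pool 2 ended the call, with limma adjusted p = 0.158 and 0.0549. Over the 17 settings the limma, edgeR or DESeq2 adjusted p lay between 0.000265 and 0.163, and 14 settings kept the call. In these bulk samples more cells of a type and more RNA per cell cannot be told apart, for *Tbx18* as for the other genes.

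*Tbx18* and *Tbx20* lie on the same chromosome far from each other, and their fold changes were close, at 0.37 and 0.41 on the log2 scale. The log2 ratio of *Tbx18* to *Tbx20* was -3.44, -3.44 and -3.38 with the transgene and -3.36 and -3.41 in WT. Here the groups overlapped, and the exact two-sided permutation p was 0.3.

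**Figure D3:**
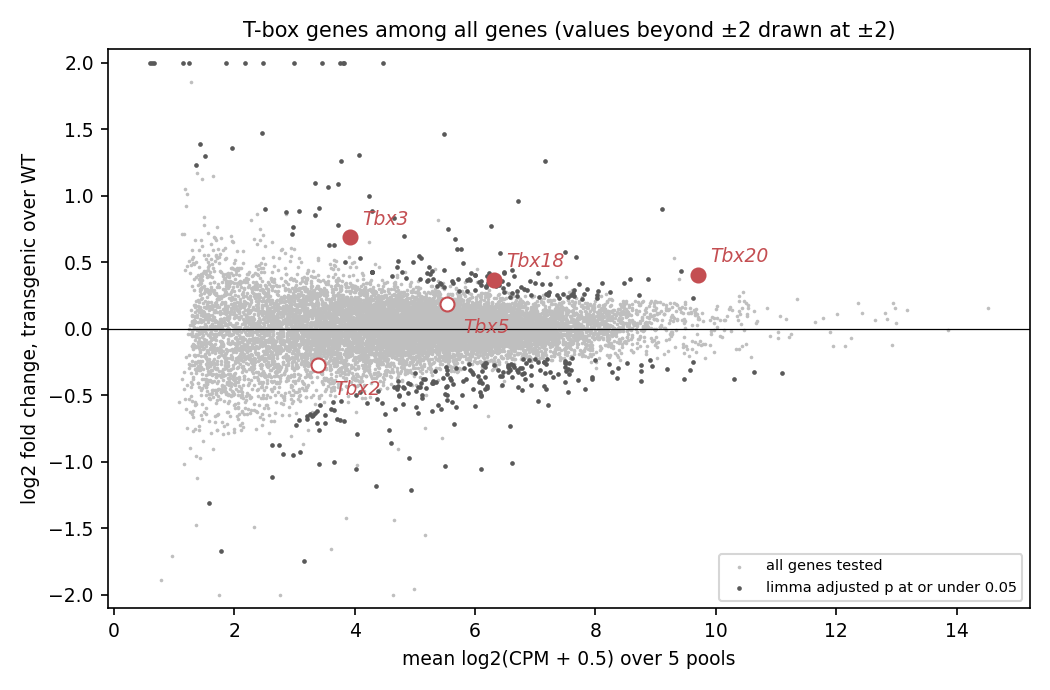
Log2 fold change of transgenic over WT hearts (vertical axis) against the mean log2(CPM + 0.5) of 5 pools (horizontal axis) for all 12857 genes, with genes past the limma threshold in dark grey and the T-box genes in red, filled where they passed, while values beyond 2 in either direction are drawn at 2 or -2. *Tbx3* at 0.69, *Tbx18* at 0.37 and *Tbx20* at 0.41 are filled, and *Tbx2* at -0.28 and *Tbx5* at 0.18 are open.

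The calls of the 3 genes that rose depended on 2 choices. Without the variance trend of limma, *Tbx3*, *Tbx18* and *Tbx20* had adjusted p-values of 0.108, 0.163 and 0.165, and 10 of all genes were called. When either WT pool is dropped, the spread comes from the transgenic pools alone, and 43 or 45 of all genes were called, with 1 of the 5 T-box genes among them in each case. With each transgenic pool left out in turn all 3 were called. Their log2 fold changes kept their sign in each of the 17 settings.

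**Figure D4:**
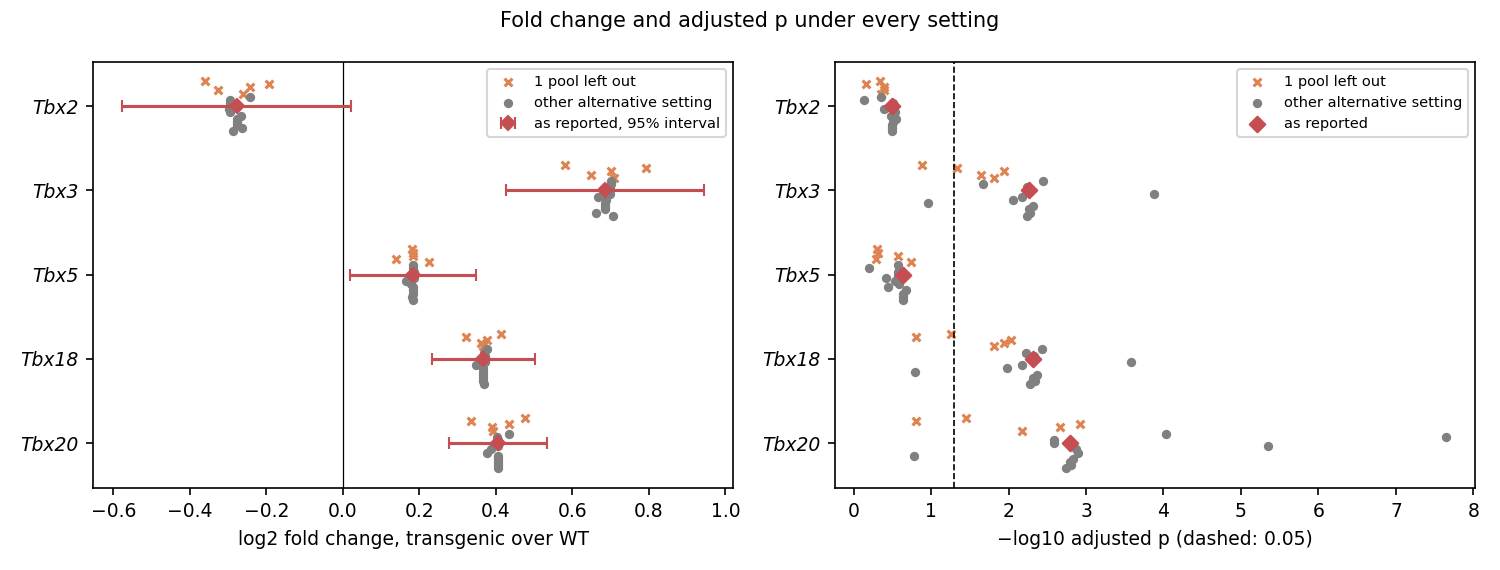
Left, log2 fold change of each T-box gene with limma and its 95% interval (red) and in the 17 alternative settings (grey dots, and orange crosses where 1 pool was left out). Right, −log10 of the adjusted p, with the threshold of 0.05 dashed. The values of *Tbx2* and *Tbx5* lie to its left in every setting. *Tbx3*, *Tbx18* and *Tbx20* lie to its right in 15, 14 and 15 of 17, of which 2 repeat another fit.

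Genes set beside the T-box factors were described from 13 fixed lists. Beside the members, names are paired with identifiers only for 405 genes that the study chose as changed in these same pools, with *Tbx3*, *Tbx18* and *Tbx20* among them, so the direction of the genes below is not independent evidence and how many genes of each list passed cannot be given. Of 6 chamber genes that Tbx2 and Tbx3 are known to repress or that mark chamber identity, 2 were named. Both fell. *Gja5*, which encodes connexin 40 of trabeculae, conduction fibres and developing coronary vessels, reached 107, 98.6 and 135 CPM with the transgene against 162 and 168 CPM in WT. *Cited1*, a transcriptional co-regulator of ventricular myocardium, was at 103, 91.3 and 94.8 CPM against 139 and 127 CPM. The log2 fold changes of *Gja5* and *Cited1* were -0.55 and -0.46, with limma adjusted p-values of 0.00494 and 0.00134. For each of them both WT pools were above all 3 transgenic pools, as for 18.0% of all genes and for *Tbx2*, which did not pass. *Tbx3*, *Tbx18* and *Tbx20*, and *Tbx5*, which did not pass, had the opposite order, as did 17.7% of all genes. Repression of either gene by a T-box factor was not tested.

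Of 9 genes of the canal and conduction system, 4 were named. *Bmp2* (0.99 on the log2 scale, limma adjusted p = 0.000712), the T-type calcium channel gene *Cacna1g* (0.77, adjusted p = 1.12e-05) and *Id2* (0.96, adjusted p = 1.26e-06), a target of Bmp signals, rose. *Hcn4*, the pacemaker channel gene, had a log2 fold change of -0.45 and did not pass (limma adjusted p = 0.0738), with 10.8 to 12.1 CPM per transgenic pool and means of 11.6 and 16.1 CPM in transgenic and WT hearts. Reads from the transgenic *Bmp2* cDNA and from the endogenous locus are not separated in the *Bmp2* value.

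Of 14 cardiac factors listed with Tbx5 and Tbx20, 7 were named. The list is wider than factors that act together with them. The study describes Hand1 as an effector of Tbx20 and Hey2 as a repressor of *Tbx2*. It describes *Mycn* as a target of Smad4. *Hand1*, *Hand2*, *Gata4*, *Hey2*, *Mycn* and *Smarcd3*, which encodes a chromatin remodelling subunit that Tbx5 works with, rose, with log2 fold changes of 0.50, 0.32, 0.23, 0.24, 0.34 and 0.43 in that order and limma adjusted p-values of 0.0463, 0.0132, 0.0411, 0.0267, 0.0478 and 0.00282. *Gata6* was at 0.21 on the log2 scale and did not pass (limma adjusted p = 0.0591). *Smarcd3* reached 96.2, 109 and 94.9 CPM with the transgene against 74.9 and 73.0 CPM in WT, and its fold change was close to that of *Tbx20*.

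Of 18 Bmp pathway genes, 8 were named. Besides *Bmp2* and *Id2*, *Smad9*, which encodes a receptor-regulated Smad, and *Smad6* and *Smad7*, which encode inhibitory Smads, rose by 1.31, 0.75 and 0.54 on the log2 scale (limma adjusted p-values of 2.84e-05, 0.000626 and 0.00206). The ligand gene *Bmp10* fell by 1.18 (limma adjusted p = 0.000626). *Bmpr2* and *Id3* did not pass, at -0.42 and 0.29 on the log2 scale, where limma gave an adjusted p of 0.0522 and of 0.0676. The median log2 fold change was 0.65 over these 8 genes, -0.51 over the 2 chamber genes and 0.86 over the 4 canal genes. It was 0.32 over the 7 genes listed with Tbx5 and Tbx20, against 0.00 over all genes tested. Since the study chose all of these genes as changed, that choice sets how far the medians lie from 0, and *Bmp2* and *Id2* count in both the canal and the Bmp list. *Bmp2* is also the gene that the transgene expresses, and its value enters both medians.

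**Figure D5:**
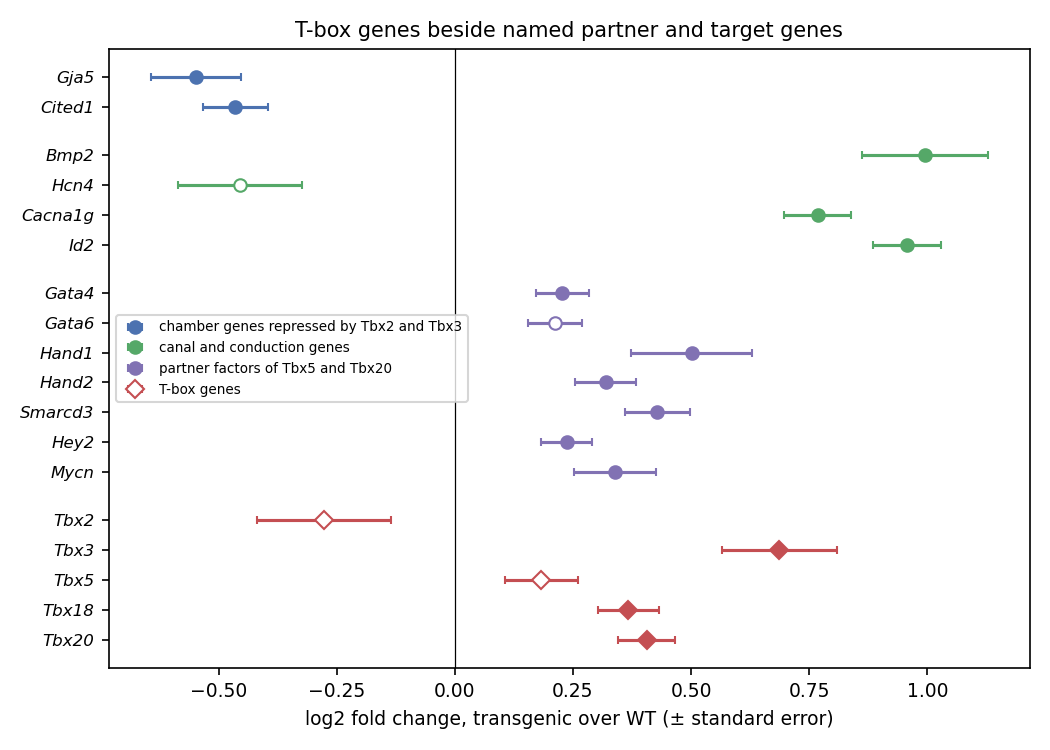
Log2 fold change of transgenic over WT hearts (horizontal axis) with standard errors, for the named genes of 3 lists and for the T-box genes, filled where the limma adjusted p was at or under 0.05. The 2 chamber genes lie at -0.55 and -0.46. The 6 genes that passed on the list drawn as partner factors lie at 0.23 to 0.50, on both sides of *Tbx18* and *Tbx20*. The study chose the genes of the 3 lists shown here as changed.

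Markers of cell types could be checked only in part. None of the 9 epicardium markers, 7 cardiomyocyte markers and 8 valve mesenchyme markers in the lists was named, so the labelled tissue and the source of *Tbx18* reads were not checked against them, and the other 12 T-box family genes, 7 red cell markers and 4 macrophage markers were not named either. Of 5 atrial markers, 2 were named. *Myl7*, a myosin light chain gene that is strongest in the atria at later stages, rose from 384 and 373 CPM in the WT pools to 653, 869 and 617 CPM in the transgenic pools, a log2 fold change of 0.90 (limma adjusted p = 0.000166). The other, *Bmp10*, fell. The study uses *Bmp10* as a marker of ventricular trabeculae at E14.5, so it is not specific to atria here. Of 6 endothelium and endocardium markers, 2 were named. *Kdr* was at 112 to 137 CPM in transgenic and 172 and 176 CPM in WT pools (log2 fold change -0.46, limma adjusted p = 0.00286), and *Cdh5* was at -0.25 on the log2 scale and did not pass (limma adjusted p = 0.0563). Of 5 smooth muscle and pericyte markers, 3 were named. *Myh11* and *Rgs5* fell by 0.71 and 0.48 on the log2 scale (limma adjusted p-values of 0.0204 and 0.0089), and *Pdgfrb* was at -0.24 and did not pass (limma adjusted p = 0.0519). The part of these markers, or of atrial tissue left on the hearts, in the T-box values was not tested.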

How the data were processed

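Hearts of E14.5 WT and transgenic embryos were measured by RNA-seq. The authors removed adaptors with cutadapt, aligned reads with Bowtie 0.12.9, quantified genes with RSEM over GRCm38 and Ensembl genes, scaled libraries with edgeR 3.0.8, and deposited CPM per pool, without genes of low values. The cutadapt and RSEM versions in the submitters' processing notes (1.0 and 1.2.19) are not those of the methods. Every CPM value equalled a whole number of reads (within 0.01 reads), so reads could be recovered.

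Groups came from sample titles. The comparison was made with limma 3.58.1 in R 4.3.3 (lmFit, eBayes with a variance trend) on log2(CPM + 0.5), without covariates. A minimum of 1 CPM in 2 libraries removed no gene. The 17 alternatives changed the pseudocount (0.1 or 1), the filter (none, or a mean CPM of 5), the variance trend, the scaling (quantile, or equal totals) or the tool (edgeR 4.0.16 or DESeq2 1.42.0 on recovered reads), blocked on pool number, or dropped 1 pool. The tests were tested on simulated data.

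The members and lists were chosen with earlier results of these data known. Named genes are the 5 members, the list genes with a name, and for each member the 3 named genes with the most similar values. Positions came from RefSeq GRCm38.p6, matched by symbol for all 5. Intervals and floors cover counting error only. Order of levels between genes needs transcript lengths, which were not used here. No sequences are shown, and 1 gene of the lists is not reported here. Python 3.11.15, numpy 2.4.6, pandas 2.3.3, scipy 1.17.1 and matplotlib 3.10.9 were used.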

Additional observations from a re-analysis of the deposited data

How the results depend on the processing

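The log2 fold changes of all 5 genes kept their sign in all 17 settings, and *Tbx2* and *Tbx5* passed in 0 of them. Without the variance trend 10 genes and 0 of the 5 were called, and the log2 fold changes of *Tbx3*, *Tbx18* and *Tbx20* stayed at 0.69, 0.37 and 0.41 with limma adjusted p-values of 0.108, 0.163 and 0.165. The cause was not tested. DESeq2 called 229 genes, against 362 (157 higher, 205 lower) in the comparison as reported. With libraries rescaled to the same total, 125 were higher and 251 lower. Dropping the filter, which removed no gene, and computing TMM factors anew, which equalled the deposited ones, could change nothing, so these 2 of the 17 settings carry no information.

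With each pool left out in turn, 43 to 464 genes and 1 to 3 of the 5 were called. The log2 fold changes ranged from -0.36 to -0.19 for *Tbx2*, 0.58 to 0.79 for *Tbx3*, 0.14 to 0.23 for *Tbx5*, 0.32 to 0.41 for *Tbx18* and 0.34 to 0.48 for *Tbx20*. A lone WT pool was assumed to vary like the transgenic pools.

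Pools of the 2 genotypes share the numbers 1 and 2, and nothing says that a number marks a litter or day. The deviations of same-numbered pools from their group means had correlations of -0.03 and -0.05 across genes. With 2 WT pools the deviations of one mirror those of the other. The correlations thus rest on 1 WT difference and cannot show whether numbers mark pairs. With the pool number as a replicate block 655 genes were called. Number 3 occurs only among the transgenic pools, so the block takes that pool out of the contrast. The block left *Tbx3*, *Tbx18* and *Tbx20* at 0.70, 0.38 and 0.43, the same values as without transgenic pool 3. Their limma adjusted p-values with the block were 0.00357, 0.00374 and 9.33e-05, and the block changed the call of none of the 5. Read counts were lowest for *Tbx2*, at 70 to 113 per pool, and counting error bears most on its value.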

Other observations

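Among 400 other genes with a name and a mean of at least 5 CPM, those whose log2 values followed each T-box gene most closely over the 5 pools were looked up. Since 5 pools share 1 contrast and the named genes were chosen by the study as changed, high values of Pearson's r are a description of that contrast. For *Tbx3* the closest were *Tcea3*, *Hand2* and *Bmp2* (r of 0.997, 0.997 and 0.996). *Bmp2* reached 23.0, 27.1 and 23.3 CPM with the transgene against 14.1 and 10.2 CPM in WT. For both *Bmp2* and *Tbx3*, transgenic pool 2 was the highest and WT pool 2 the lowest. *Tbx5* had the same highest and lowest pool, and pool 2 was also the highest transgenic pool for *Tbx2*, *Tbx18* and *Tbx20*. For *Tbx3* the differences within a genotype were of the size of counting error. Its chi-square was 0.791 on 2 degrees of freedom among transgenic pools and 1.07 on 1 between WT pools. For *Tbx20* the closest were *Anp32b*, *Plekhh1* and *Ccdc34* (0.998, 0.997 and 0.996).

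For *Tbx18* the closest were *Emilin2*, which encodes an extracellular matrix protein, *Tpm3-rs7* and *Ugdh*, which encodes an enzyme that makes a precursor of hyaluronan (0.997, 0.995 and 0.994). *Emilin2* had means of 151 CPM in transgenic and 119.6 CPM in WT hearts, and *Ugdh* had means of 82.9 and 64.1 CPM, with log2 fold changes of 0.34 and 0.37, close to that of *Tbx18* (limma adjusted p-values of 0.00378 and 0.00444). *Tpm3-rs7* had means of 41.2 CPM in transgenic and 0.201 CPM in WT hearts (limma adjusted p = 3.19e-11), the WT mean being under the 3-read floor. By its name it is related to *Tpm3*, and whether reads of *Tpm3* are among its reads was not tested. For *Tbx5*, which did not pass, the closest were the RNA-binding protein genes *Hnrnpd* and *Taf15* and the splicing gene *Snrpd1* (0.998, 0.996 and 0.992). For *Tbx2* they were *Reck*, *Erdr1* and *Dpy19l3* (0.984, 0.981 and 0.967).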
